A study of Homo sapiens with 6 samples.

Results

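The genes described here are the long noncoding RNA genes with a LINC symbol that were expressed in OSC19SSZR cells. OSC19SSZR is a line of human oral squamous cell carcinoma with resistance to sulfasalazine, an inhibitor of the cystine transporter xCT. All 6 samples are of this 1 line: 3 received control siRNA and 3 received siRNA against FOXA1 with a lipid reagent, and total RNA was taken after 48 h for RNA sequencing. They were chosen by name and by level: rows of the deposited table of normalized counts whose name is LINC followed by digits and whose mean over the 6 samples was at least 20, which gave 150 of 61859 genes. The table holds 2244 such LINC names in all, of which 1374 were listed at 0 in every sample. Whether the 3 samples of a group are separate cultures is not in the labels. A p-value here therefore reflects the spread among these samples alone, and that spread may be technical.

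Long intergenic noncoding RNAs are transcripts that do not code for a known protein and that mostly lie between protein-coding genes. Like messenger RNAs, most are made by RNA polymerase II, capped and spliced. A few act in the nucleus on nearby genes or on chromatin, others act in the cytoplasm by binding proteins or microRNAs, and for most symbols with this prefix no function is established. FOXA1 is a forkhead transcription factor that binds closed chromatin and opens it for other factors in epithelial cells. Many of its binding sites lie in enhancers, where noncoding transcription is common.

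The label of the knockdown was checked on FOXA1 itself, which stood at 1477, 1378 and 1459 normalized counts in the control samples and at 247, 192 and 189 after knockdown. The groups did not overlap, and 14.5% of the control level remained (log2 fold change -2.79 ± 0.09, SE, n = 3 each; limma adjusted p = 3.32e-18; exact two-sided permutation p = 0.1, the smallest that 3 against 3 allows). Reads recovered from the normalized counts came to between 16510125 and 25732569 per sample, of which 14795 to 23166 fell on the 150 LINC genes. Of the squamous markers, KRT5, TP63, CDH1, EPCAM, DSP, SFN, KRT17 and CDH3 were abundant in every sample, while KRT14 was low (mean 38.8) and KRT6A ranged from 38.3 to 802. Among markers of other cells, DCN was at 0 in every sample and COL3A1, PDGFRB, PTPRC, CD3E, CD14, PECAM1 and VWF did not exceed 6.66, whereas COL1A1 (90.1 to 162), CD68 (76.1 to 105) and CDH5 (537 to 565 with control siRNA, 278 to 298 with FOXA1 siRNA) were present. The part of these genes' sources in the LINC values was not tested.

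LINC genes were more often lower than higher after FOXA1 knockdown. With a log2 fold change of FOXA1 siRNA minus control siRNA from limma on log2(normalized count + 1), and a Benjamini-Hochberg adjusted p under 0.05 over all 18460 genes tested, 56 of the 150 were lower, 18 were higher and 76 did not pass. Lower calls thus made up 37.3% of the LINC genes against a background of 25% of all genes tested, and higher calls 12.0% against 26.8%. In either direction the share was 49.3%, near the background of 51.8%. The median log2 fold change was -0.27 over the LINC genes (middle 50% from -0.68 to 0.07) and 0.00388 over all genes tested. With quantile normalization the split was 46 lower and 25 higher, and with equal library totals it was 68 lower and 13 higher. These settings also moved the median of all genes tested, to 0.03 and -0.09 in the same order. The shares of all genes by direction are not given for them, so these splits have no matched background.

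**Figure D1:**
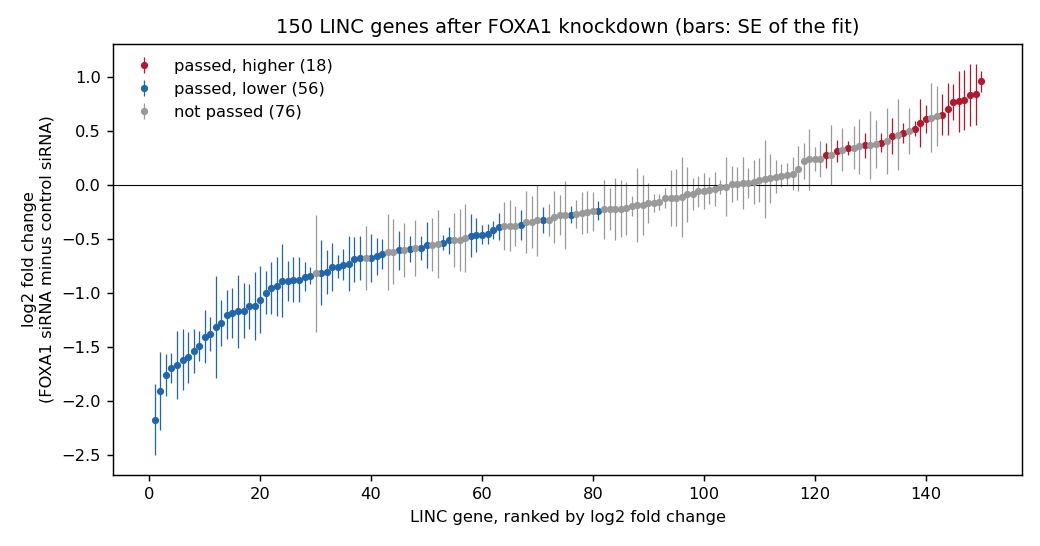
Log2 fold change (FOXA1 siRNA minus control siRNA) of each of the 150 LINC genes, ranked from the lowest to the highest, with vertical bars for the standard error of the fit and colours for the call. The curve lies below 0 for 104 genes and above it for 46, and it runs from -2.17 to 0.96.

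The lower level of the LINC genes was visible in each knockdown library. Medians per library are not given for other genes. Their median log2 fold changes over all samples were also negative at means of 20 to 50, 50 to 100 and 100 to 200 (-0.17, -0.09 and -0.09). Relative to the control mean, the median LINC gene stood at 0.02, 0.01 and -0.0032 on the log2 scale in control siRNA replicates 1, 2 and 3, and at -0.24, -0.31 and -0.31 in FOXA1 siRNA replicates 1, 2 and 3. Summed over the 150 genes, LINC RNAs took 0.111%, 0.113% and 0.110% of all normalized counts in the controls and 0.0935%, 0.0900% and 0.0896% after knockdown. The 3 knockdown libraries were all below the 3 control libraries on both measures. The LINC sums themselves were 20247, 20364 and 19843 in the controls and 17930, 17580 and 17548 after knockdown. The totals of all normalized counts were larger after knockdown (1.92e+07 to 1.96e+07, against 1.81e+07 to 1.83e+07). Part of the lower percentages thus comes from these larger totals. In bulk RNA, fewer cells with a transcript and less of it per cell cannot be told apart.

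At least 2-fold lower levels were reached by 20 of the 56 LINC genes that fell, or 13.3% of the 150, where 5.33% of all genes tested passed with such a fall. For 9 of the 20 the knockdown mean was under 20. Among the 126 LINC genes with a mean of at least 20 in each group by itself, 11 fell by 2-fold or more (8.73%, against 3.28% of other genes chosen likewise). The share depends on the level: at a mean of 20 to 50 it was 17.5% of LINC genes, 11.8% of other genes and 18.6% of protein-coding genes, and at 200 and over it was 0 of 24 LINC genes and 1.87% of other genes. None of the 18 LINC genes that rose reached 2-fold, where 1.65% of all genes tested did. That share would be only a few of 150 genes, so the absence is near the background. With quantile normalization 4 LINC genes rose 2-fold (LINC00294, LINC02043, LINC00342 and LINC00235, at 1.01 to 1.05 on the log2 scale), and 14 fell as far. Of all genes tested, 2.56% rose and 4.05% fell 2-fold under that setting. Without control siRNA replicate 3 the 2-fold rises were LINC00294 (1.01) and LINC00342 (1.02), and 23 fell as far. There 1.78% of all genes tested rose and 5.24% fell 2-fold. The groups did not overlap for 96 LINC genes (64.0% against 57.6% of all genes tested), of which 24 did not pass the test. Both LINC02887 and LINC02846 passed as lower although a control sample lay inside the range of the knockdown samples or the reverse.

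The mean used to choose the genes covers both groups, so a gene that is high in 1 group only can enter through it. Of the 126 LINC genes at 20 or more in each group, 45 were lower and 15 were higher. For other genes chosen likewise only the 2-fold changes were counted, so these 2 counts have no matched background. A further 18 reached 20 with control siRNA only and 6 with FOXA1 siRNA only. Just outside the limit were LINC01807 (mean 19), LINC03011 (19.2) and LINC00623 (19.3), and just inside it LINC01967 (20.2), LINC01139 (20.3) and LINC01176 (20.4).

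Since the power of the test depends on the level, LINC genes were set beside other genes of the same mean. At a mean of 20 to 50, 30.2% of 63 LINC genes were lower and 7.94% higher, against 23.6% and 9.3% of 2097 other genes. The 41 LINC genes at 50 to 100 had 39% lower and 4.88% higher, against 27.1% and 13.7% of other genes. Between 100 and 200 the shares were 54.5% lower and 18.2% higher for 22 LINC genes, against 31.6% and 17.6%. At 200 and over, 37.5% of 24 LINC genes were lower and 29.2% higher, whereas 25.1% of other genes were lower and 38% higher. In all 4 ranges a larger share of LINC genes than of other genes was lower; the difference was not tested, because the genes were chosen with results known.

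**Figure D2:**
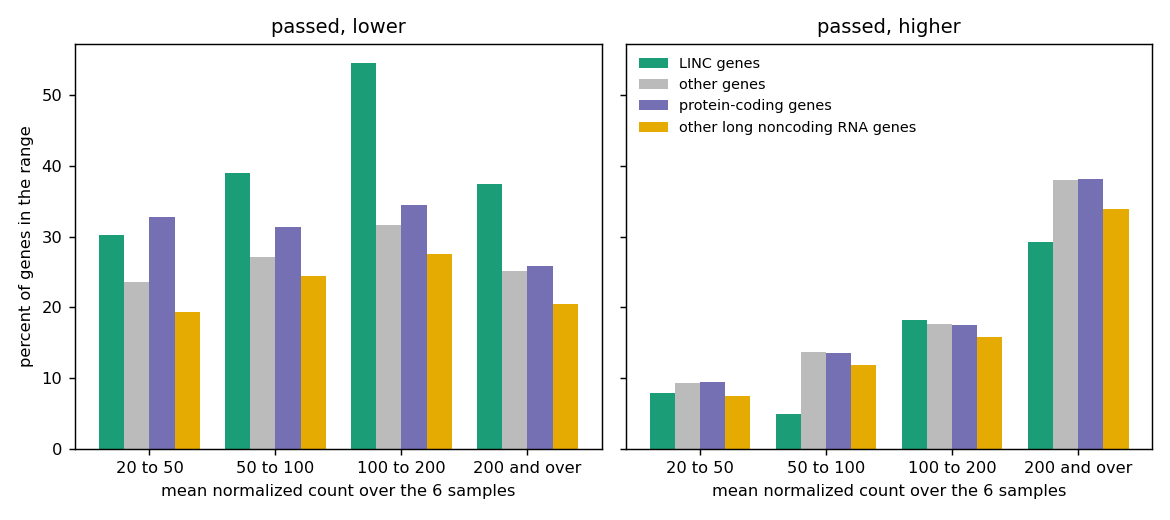
Percent of genes that passed as lower (left) and as higher (right) in 4 ranges of the mean normalized count, for LINC genes, all other genes, protein-coding genes and other long noncoding RNA genes. The green bars of the LINC genes exceed the grey bars of the other genes in each range on the left, and reach 54.5% at 100 to 200.

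The medians in these ranges followed the same order. They were -0.34, -0.28, -0.35 and -0.14 for LINC genes from the lowest to the highest range, and -0.17, -0.09, -0.09 and 0.07 for other genes. Protein-coding genes of the lowest range, at -0.32, were close to the LINC genes there, and 32.7% of them were lower. Other long noncoding RNA genes, which carry clone, antisense or host gene names, stood at -0.18, -0.06, -0.05 and 0.07. Over all levels above 20, 22.3% of 2367 such genes were lower and 18.2% higher, so falls outnumbered rises by less than among the LINC names, a difference that was not tested.

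**Figure D3:**
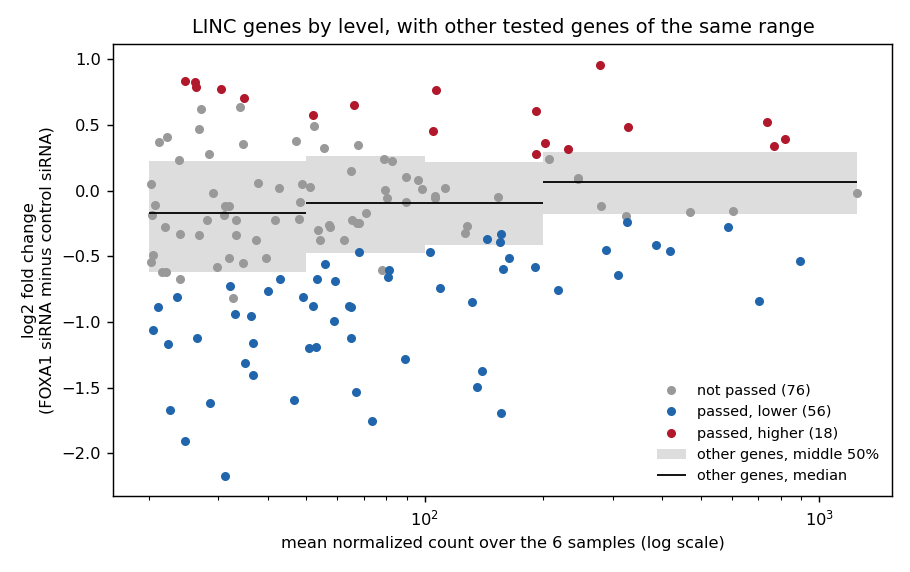
Log2 fold change of each LINC gene against its mean normalized count (log scale), coloured by call, over the middle 50% (grey boxes) and the median (black lines) of other tested genes in each range. The deepest falls lie at means under 200, and the rises of the abundant genes on the right are small.

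The 10 largest falls were led by LINC00589, which lies on chromosome 8 and is annotated as a lincRNA of 4 exons. It was measured at 56.1, 51.4 and 45.0 normalized counts in the controls and at 16.1, 5.31 and 13 after knockdown. All 3 knockdown samples were well below the controls, and 22.6% of the control mean remained (log2 fold change -2.17 ± 0.33; limma adjusted p = 3.61e-06). LINC00640 (GRCh38 chromosome 14, 51333393 to 51365557, plus strand) had 50.4, 29.3 and 37.7 with control siRNA and 15, 11.4 and 4.74 after knockdown. These groups did not overlap either, but the values spread widely within each (-1.91 ± 0.36; limma adjusted p = 7.39e-05).

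LINC02870 gave the lowest adjusted p of all LINC genes. This lincRNA (chromosome 10, 132444327 to 132449408, plus strand) had 198, 237 and 282 normalized counts in the controls and 67.5, 75.9 and 74.7 with FOXA1 siRNA. The knockdown samples lay close together at 30.4% of the control mean, far below the lowest control (-1.69 ± 0.14; limma adjusted p = 6.34e-11). LINC02984, a lincRNA on chromosome 8, fell almost as far, from 200, 222 and 181 to 70.7, 77.4 and 64.0 (-1.49 ± 0.14; limma adjusted p = 6.67e-10). Its exons overlap those of other genes over 19.6% of their length. The largest overlap is with AC022034.3, on the other strand, which was also lower (limma adjusted p = 0.00462).

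LINC02211 (chromosome 5, 25187800 to 25324386, plus strand) went from 127, 99.9 and 114 to 37.5, 27.3 and 34.4, with no overlap (-1.76 ± 0.19; limma adjusted p = 1.06e-08). It shares 31.1% of its 31-base words with NORAD, an abundant cytoplasmic RNA that binds Pumilio proteins. NORAD itself went from 8173 ± 153 normalized counts to 2371 ± 43.8 (SD, n = 3 each; -1.79 ± 0.05; limma adjusted p = 1.25e-21). How many reads the counting shared between them was not tested, so the value of LINC02211 is uncertain.

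The remaining 5 of the 10 were LINC01484, LINC01546, LINC00888, LINC00885 and LINC02784. LINC00885 (chromosome 3, 196142636 to 196160890, plus strand) had 102, 77.7 and 122 with control siRNA and 31.1, 31.9 and 38.0 after knockdown (-1.53 ± 0.20). LINC00888, which GENCODE lists as a transcribed pseudogene on the same chromosome, had 84.6, 67.6 and 59.6 against 18.2, 22.8 and 27.3 (-1.59 ± 0.23). In both genes the highest knockdown sample was below the lowest control. LINC01546 on the X chromosome kept 31% of its control level (-1.61 ± 0.28), LINC01484 on chromosome 5 kept 29.6% (-1.67 ± 0.32) and LINC02784 on chromosome 1 kept 36.5% (-1.40 ± 0.25). All 10 were called lower in each of the 16 fits that were run.

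The largest rise was that of LINC00294, a single-exon lincRNA (chromosome 11, 33076149 to 33079454, plus strand). It was read at 174, 192 and 201 normalized counts in the controls and at 378, 362 and 363 after knockdown. The knockdown samples agreed closely and stood at 195% of the control mean (log2 fold change 0.96 ± 0.10; limma adjusted p = 2.35e-09). Other genes together cover 17.4% of its exon. The largest overlap is with PIGCP1, a processed pseudogene on the other strand, which was also higher (0.79; limma adjusted p = 2.28e-05). The strand setting of the counting is not given in the sources used here, so reads from overlapping genes cannot be told apart.

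LINC02987 and LINC01943 were the other rises of genes with a mean over 100 among the 10 largest. LINC02987 (chromosome 19, 27793463 to 27918863, plus strand) had 61.8, 83.7 and 92.1 in the controls and 149, 110 and 145 with FOXA1 siRNA (0.76 ± 0.17; limma adjusted p = 0.000327). LINC00662 starts 477 bases away on the opposite strand. With 64.7, 91.8 and 70.1 against 69.7, 56.2 and 74.7 normalized counts it overlapped between the groups and did not pass (-0.17 ± 0.18; limma adjusted p = 0.468). LINC01943 rose from 185, 124 and 149 to 253, 229 and 210 (0.61 ± 0.13; limma adjusted p = 0.000272). It shares 38.6% of its 31-base words with CYTOR, a long noncoding RNA linked to cytoskeletal change in carcinoma cells, which rose as well (0.41 ± 0.08), so the reads of these genes may have been shared.

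LINC01322 (chromosome 3) rose from 51.6 ± 10.6 to 80.7 ± 7.14 (SD, n = 3 each; 0.65 ± 0.19; limma adjusted p = 0.00499). The other 6 of the 10 largest rises had means of about 25 to 52, and each depended on single libraries or on the test. LINC02043 had 15.2, 17.1 and 19.9 against 27.9, 31.1 and 36.8 (0.84 ± 0.29; limma adjusted p = 0.0158), LINC00342 13.3, 19.2 and 24.1 against 33.2, 34.9 and 32.0 (0.83 ± 0.29; 0.0173), and LINC00235 20.9, 18.2 and 17.8 against 31.1, 40.2 and 29.7 (0.79 ± 0.28; 0.0188). LINC00342 shares 44.4% of its 31-base words with LINC02969, which did not pass (0.05 ± 0.20), and LINC02043 shares 21.5% with AC005726.1, so both values are uncertain. For LINC01311 (0.77 ± 0.28), LINC02367 (0.70 ± 0.24) and LINC02245 (0.58 ± 0.22) the limma adjusted p was 0.0236, 0.0164 and 0.0307. The groups did not overlap for any of the 6, but DESeq2 on the recovered reads gave them adjusted p-values of 0.0526 to 0.0850.

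Leaving out single samples also ended these 6 calls in limma. The adjusted p of LINC02043 was 0.0695 without FOXA1 siRNA replicate 3 and 0.0511 without control siRNA replicate 1, and that of LINC00342 was 0.0545 without FOXA1 siRNA replicate 2 and 0.0938 without control siRNA replicate 1. LINC00235 reached 0.102 without FOXA1 siRNA replicate 2. LINC01311 was at 0.0532, 0.112 and 0.149 without FOXA1 siRNA replicates 1 and 2 and control siRNA replicate 3. LINC02367 was at 0.0695 without FOXA1 siRNA replicate 1 and at 0.0580 without control siRNA replicate 3, and LINC02245 at 0.0693, 0.177 and 0.153 without FOXA1 siRNA replicates 1 and 3 and control siRNA replicate 3.

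**Figure D4:**
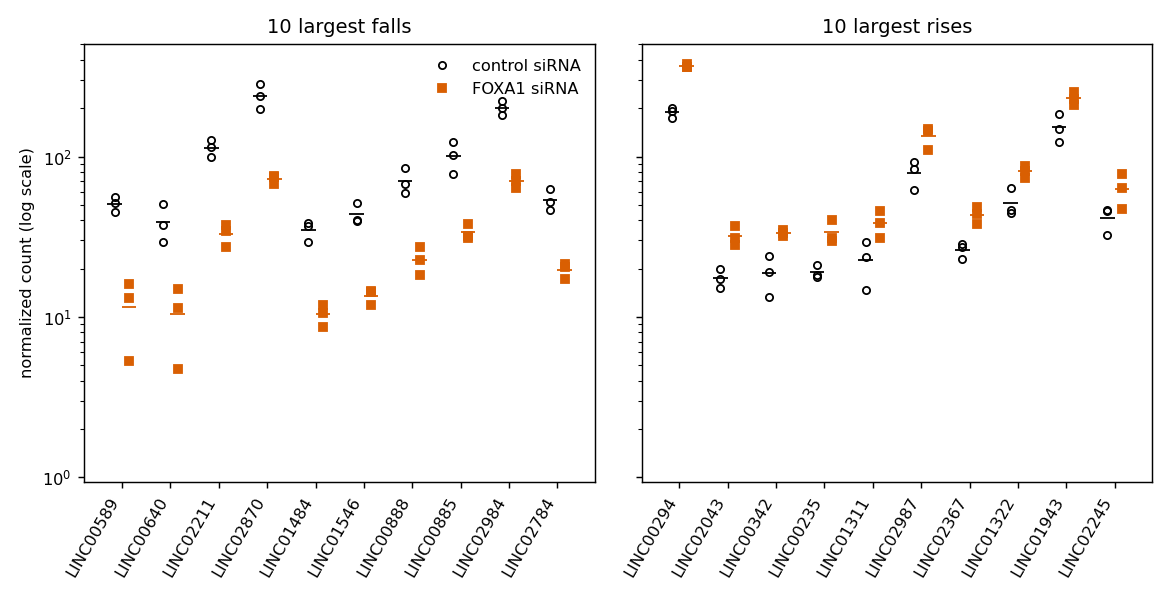
Normalized counts (log scale) of the 10 largest falls (left) and the 10 largest rises (right) in the 3 control siRNA samples (open circles) and the 3 FOXA1 siRNA samples (orange squares), with horizontal lines at the group means. In each gene the samples of the groups are separate, as the choice of these genes requires, and the gaps are wider on the left.

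The 6 most abundant LINC genes by normalized count moved little or moderately. LINC00649, the highest of all, had 1292, 1332 and 1145 with control siRNA and 1186, 1211 and 1313 after knockdown. Its groups overlapped and it did not pass (-0.02 ± 0.06; limma adjusted p = 0.806). LINC00511, an RNA reported to promote growth in several carcinomas, went from 1133, 1024 and 1021 to 712, 704 and 779, with every knockdown sample lower (-0.53 ± 0.07; limma adjusted p = 1.45e-07). LINC01226 fell from 955, 796 and 959 to 502, 505 and 503, a very narrow range in the knockdown samples (-0.84 ± 0.07; limma adjusted p = 2.91e-10).

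The other three of the 6 rose. LINC00958, which has been described as raised in oral and bladder carcinomas, had 618, 606 and 590 in the controls and 799, 872 and 939 with FOXA1 siRNA (0.52 ± 0.07; limma adjusted p = 5.16e-07). LINC01106 rose from 711 ± 90.2 to 931 ± 88.3 (0.39 ± 0.08) and LINC01123 from 679 ± 44.8 to 859 ± 25.2 (0.34 ± 0.07). These genes on chromosome 2 are near copies, since LINC01106 shares 91% of its 31-base words with LINC01123 and LINC01123 shares 65.5% with LINC01106. Their values may therefore not be separate measurements.

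On a scale per kilobase of exon, on which levels can be set side by side between genes, the order differed. LINC01518, of 519 exon bases, led with a level of 539 normalized counts per kilobase, followed by LINC00674 (440), LINC01106 (296), LINC00958 (257), LINC02967 (252), LINC01503 (242) and LINC01123 (233). These 7 were picked after their values were seen. LINC01503, an RNA known from squamous carcinomas where p63 drives it, had 437, 444 and 445 normalized counts in the controls and 324, 340 and 329 with FOXA1 siRNA. Both groups were tight and did not overlap (-0.42 ± 0.08; limma adjusted p = 8.29e-05). TP63 itself ranged from 4779 to 5029 with control siRNA and from 3633 to 3810 with FOXA1 siRNA. A link between TP63 and LINC01503 in these samples was not tested. Neither LINC01518 nor LINC00674 passed (limma adjusted p = 0.304 and 0.0907).

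All 150 LINC genes matched GENCODE 29 by gene ID, 33 of them under another name there. By annotation 111 were lincRNAs, 13 processed transcripts, 10 antisense genes, 11 transcribed pseudogenes, 2 sense-intronic genes, 2 bidirectional promoter genes and 1, LINC02693, a protein-coding gene. Their longest transcripts had a median length of 2089 bases (370 to 9730), 25 had a single exon, and the median GC content was 47.7%. The 56 that fell, with medians of 2079 bases and 50% GC, and the 18 that rose, with 2418 bases and 48.2% GC, were alike in length and composition as far as these medians show. Exons of 67 overlapped an exon of another gene. Among the 83 without overlap, 35 were lower and 11 higher with a median log2 fold change of -0.38. Among the 72 that in addition shared under 20% of their words with any other gene, 33 were lower and 9 higher with a median of -0.46. Other genes were not filtered in these ways, so whether their medians would move likewise was not tested.

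LINC01270 and LINC01271 on chromosome 20 face each other and overlap. LINC01270 (50292720 to 50314922, plus strand) had 97.0, 146 and 135 in the controls and 35.4, 68.3 and 53.4 with FOXA1 siRNA (-1.28 ± 0.21), and LINC01271 (50310711 to 50321342, minus strand) had 62.8, 113 and 95.2 against 36.4, 45.5 and 38.0 (-1.12 ± 0.21). Both were lower in all 3 knockdown samples. Since 44.2% of the exon bases of LINC01270 lie over those of LINC01271, the pair may hold the same reads. Within 100 kb of each other there were 7 pairs of LINC genes, and this was the only pair in which both passed.

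Forkhead factors bind words such as TGTTTAC and TGTTTGC. Promoter windows of RefSeq (GRCh38.p14, from 250 bases before to 50 bases after the start) were found for 100 of the 150 LINC genes and searched for both words on both strands. They occurred in 7.41% of the 108 LINC windows and in 7.17% of all 35116 windows. Of the 108 LINC windows, 82 lay within 1 kb of the GENCODE start. By gene, 4 of 38 that fell (10.5%), 0 of 12 that rose and 4 of 50 that did not pass (8.0%) had such a word. The background was 8.68% of all 27305 genes with a window, and a difference by direction was not tested. The 4 genes that fell are shown with the word in capitals and 11 bases on each side, on the strand of the gene. GTAAACA is TGTTTAC read on the other strand.
LINC01270 (chr20:50292649-50292677, plus strand): accagccaatcTGTTTACtgaactggctg
LINC02542 (chr6:81933555-81933583, minus strand): aaactgaactgGTAAACAgaatacaaaga
LINC00339 (chr1:22025038-22025066, plus strand): atgcccactgcTGTTTGCgtacaatgagg
LINC00511 (chr17:72640510-72640538, minus strand): cggccagcggcTGTTTACctgtgcagggc
The words of LINC01270 and LINC00511 begin 60 and 55 bases before the RefSeq start, and those of LINC02542 and LINC00339 begin 92 and 142 bases before it. A match is a description of the letters and not evidence of binding. LINC02542 fell from 40.3 ± 4.14 to 24.1 ± 4.62 (SD, n = 3 each; -0.73 ± 0.25) and LINC00339 from 72.7 ± 9.13 to 45.5 ± 11 (-0.69 ± 0.21); 61.5% of the 31-base words of LINC00339 also lie in AL031281.3, so its value is uncertain. LINC00571, which holds 2 such words and did not pass, had 154, 147 and 166 in the controls and 131, 151 and 172 with FOXA1 siRNA (-0.05 ± 0.13).

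For 95 of the LINC genes the nearest tested protein-coding gene started within 100 kb. Both genes passed in 27 of these pairs, in the same direction in 19 (14 lower, 5 higher) and in opposite directions in 8. The same direction thus made up 70.4% of the 27 pairs, where it made up 66.6% of 4700 such pairs of all other tested genes. Across the 95 pairs the fold changes shared their sign in 60%, against 59.6% for the other genes, and Pearson's r was 0.16 and Spearman's rho 0.16 against 0.24 and 0.24 for the other genes (given as a description; both genes of a pair come from the same libraries). Other long noncoding RNA genes with a mean of at least 20 had higher values: 83.8% of 640 pairs in the same direction, 68.9% with the same sign and a Pearson's r of 0.49. Their neighbours were also nearer, with a median distance between starts of 5158 bases against 25270 for the LINC genes. None of these differences was tested.

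**Figure D5:**
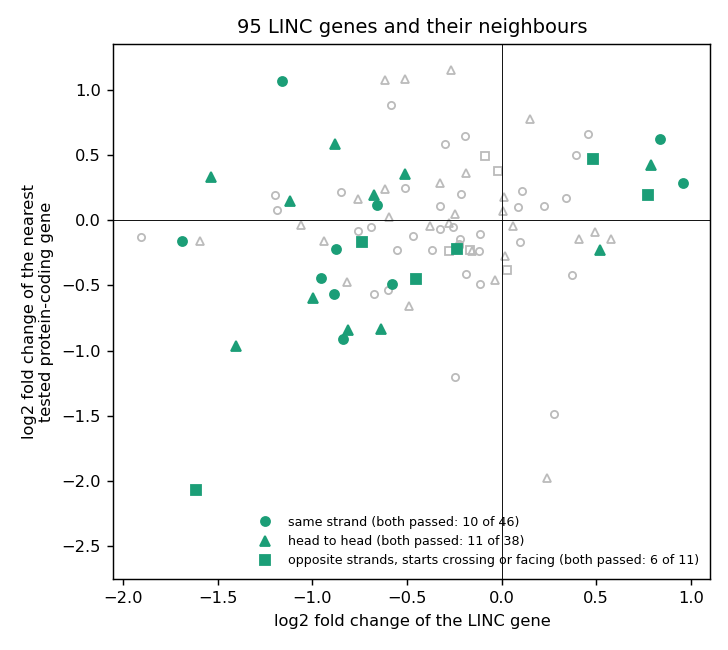
Log2 fold change of each of 95 LINC genes (horizontal) against that of its nearest tested protein-coding gene (vertical), with filled symbols where both passed and shapes for the orientation of the pair. Filled symbols appear in all 4 quadrants, with 14 in the lower left.

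Pairs differed by orientation in these counts. The 38 head-to-head pairs run apart from starts within 100 kb of each other, with a median distance of 13180 bases. Both genes passed in 11 of them, with 5 in the same and 6 in opposite directions. On the same strand it was 8 and 2 of 46 pairs, and on opposite strands with starts that cross or face each other 6 and 0 of 11. For all other genes the same direction made up 55.5%, 68.3% and 76.7% of the pairs in which both passed. For other long noncoding RNA genes with a mean of at least 20 it made up 66.4%, 75.7% and 93.2%. Genes whose starts cross or face each other can overlap, and the strand setting of the counting is not given. Reads shared within such pairs therefore cannot be told apart.

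Of the largest falls, LINC01546 shared its direction with MXRA5, a matrix-remodelling gene 74821 bases away (-2.07 ± 0.24, from a mean of 1141 to 278), and LINC02784 with ACOT11, an acyl-CoA thioesterase gene (-0.96 ± 0.12). LINC02870 and PWWP2B were both lower, but PWWP2B by only 0.16 (-0.16 ± 0.07; limma adjusted p = 0.0479). LINC00885 fell while TFRC, the transferrin receptor gene 60447 bases away, rose (0.33 ± 0.04). TMX1 and MCF2L2, the neighbours of LINC00640 and LINC00888, did not pass (-0.13 ± 0.06 and -0.16 ± 0.09).

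Among the largest rises, LINC00294 lies on the strand of TCP11L1 (0.28 ± 0.07), LINC02043 on that of RFC4, a subunit of the clamp loader of DNA replication (0.62 ± 0.06), and LINC01311 faces SLC25A1, the mitochondrial citrate carrier gene (0.19 ± 0.06); all 3 neighbours were higher. The neighbour of LINC02245, SLC1A4, a neutral amino acid transporter gene, did not pass (-0.15 ± 0.16). TINAGL1, a matrix glycoprotein gene, fell along with the abundant LINC01226 (-0.91 ± 0.05). RASSF10 fell (-0.23 ± 0.09) while LINC00958 rose.

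The pairs of opposite direction, chosen after their values were seen, included LINC00324, which fell from 57.1, 44.4 and 51.3 to 24.7, 16.7 and 26.1 (-1.16 ± 0.25). AURKB, a mitotic kinase gene on the same strand 13443 bases away, rose from a mean of 778 to 1635 (1.07 ± 0.06). LINC00857 fell from 190, 212 and 176 to 136, 147 and 121 (-0.51 ± 0.12), while ANXA11, an annexin gene that starts 2138 bases away head to head, rose (0.35 ± 0.05). In LINC02298 and CDCA4 the changes were -0.88 ± 0.21 and 0.58 ± 0.08.

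In 3 head-to-head pairs the starts were at most 1 kb apart and both genes passed. LINC00235 and CAPN15, a calpain gene, start 310 bases apart and were both higher (0.79 ± 0.28 and 0.42 ± 0.07). LINC01521, with 74.2, 87.8 and 74.3 against 31.1, 45.5 and 41.5 normalized counts, starts 545 bases from PATZ1, a zinc finger factor gene, and both were lower (-0.99 ± 0.20 and -0.60 ± 0.06). LINC01547, with 74.2, 63.6 and 59.6 against 40.7, 47.8 and 34.4, was lower while SLX9, 97 bases away, was higher (-0.68 ± 0.20 and 0.19 ± 0.07). Their RefSeq windows are shown because each lies between or over the starts of a pair, on the strand of the LINC gene, with the 50 bases from the start onward in capitals.
LINC00235 (chr16:527358-527657, minus strand): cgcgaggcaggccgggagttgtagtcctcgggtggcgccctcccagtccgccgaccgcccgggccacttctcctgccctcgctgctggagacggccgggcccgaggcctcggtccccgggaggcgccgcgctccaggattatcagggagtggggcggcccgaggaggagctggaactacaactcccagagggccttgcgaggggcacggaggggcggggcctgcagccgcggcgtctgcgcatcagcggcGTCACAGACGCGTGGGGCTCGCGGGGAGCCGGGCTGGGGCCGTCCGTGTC
LINC01521 (chr22:31346509-31346808, plus strand): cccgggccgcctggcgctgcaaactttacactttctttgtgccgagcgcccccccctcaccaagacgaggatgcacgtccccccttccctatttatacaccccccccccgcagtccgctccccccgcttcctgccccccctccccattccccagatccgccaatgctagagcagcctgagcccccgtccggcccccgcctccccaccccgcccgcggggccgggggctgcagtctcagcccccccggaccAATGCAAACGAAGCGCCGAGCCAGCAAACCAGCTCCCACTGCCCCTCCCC
LINC01547 (chr21:44939864-44940163, minus strand): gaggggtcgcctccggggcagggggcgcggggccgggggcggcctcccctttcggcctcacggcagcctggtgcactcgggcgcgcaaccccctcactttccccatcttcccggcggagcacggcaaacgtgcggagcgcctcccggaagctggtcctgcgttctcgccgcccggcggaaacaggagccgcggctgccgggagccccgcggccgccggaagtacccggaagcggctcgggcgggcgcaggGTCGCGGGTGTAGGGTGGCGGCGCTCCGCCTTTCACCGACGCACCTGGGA
None of the 3 windows holds either forkhead word. Their GC contents were 75.3%, 70.7% and 76.3%, above the median of 58.7% for the LINC windows.

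A list of 56 known long noncoding RNAs with other names was set beside them. Of the 47 that were tested, 19 were higher, 14 were lower and 14 did not pass, with a median log2 fold change of -0.004. The background over all genes tested was 26.8% higher and 25% lower. Falls thus did not outnumber rises in this list, but it was not matched to the LINC genes by level, and the difference was not tested. Many of the rises carry SNHG names (SNHG1, SNHG3, SNHG5, SNHG7, SNHG8, SNHG12, SNHG15, SNHG16 and SNHG17). SNHG14 was lower, and SNHG6 and SNHG29 did not pass. Since the list was made by hand and holds many genes of this class, it does not describe named long noncoding RNAs in general. Its largest rises were SNHG17 (1.00 ± 0.11), a small nucleolar RNA host gene, and MIR17HG (0.94 ± 0.25), the host of the miR-17 cluster. Its largest falls were NORAD (-1.79 ± 0.05) and MIR31HG (-1.45 ± 0.18), the host of miR-31.

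In the authors' deposited table all 150 LINC genes had an adjusted p, and 8 of them were higher and 44 lower at 0.05. All 52 were called in the same direction by limma, which called a further 22. The authors' calls over all genes were not counted here, so these counts stand without a background.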

How the data were processed

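Total RNA of 6 samples was sequenced with the NEBNext Ultra kit, per the labels' protocols. The submitters' processing notes name the tools HISAT2 and DESeq2, without versions, and the builds GRCh38 and GRCm38, without their roles; the counter, the annotation and the strand setting are not given in the sources used here. Signal values as deposited by the authors are normalized: each is a gene's count in 1 sample over that sample's size factor (0.843 to 1.32). The authors also deposited a log2 fold change with its standard error, a test score and a p-value with its adjusted p-value, per the file headers. Of 61862 lines, 3 malformed ones were left out. All values (100%) were whole multiples of 1 read within 0.01, so reads could be recovered.

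The members and lists were chosen with earlier results of these data known. Groups came from the sample titles. limma 3.58.1 (R 4.3.3; eBayes with trend and robust options) was run on log2(value + 1) for the 18460 genes with a mean of at least 10, with Benjamini-Hochberg adjustment and a threshold of 0.05; this scale understates changes of low genes. Named were the 10 largest rises and falls that passed without overlap of the groups, the 6 LINC genes of highest mean, those at the limit of 20, and the neighbours of the named rises and falls. Positions, overlaps and neighbours came from GENCODE 29 (GRCh38). Near copies were found by the share of 31-base words of a longest transcript that 1 other gene also holds. Alternatives were pseudocounts of 0.5 and 5, no filter, equal totals, quantile normalization, plain limma, a replicate block, each sample left out, edgeR 4.0.16 and DESeq2 1.42.0 on recovered reads, and subsets of members; the subset without shared words was added after the data were seen. Simulated data for this comparison held 18460 genes, of which 200 were changed. There limma called 16 of 25 genes changed 2-fold at a mean of 20 to 100 and 25 of 25 at a mean of 100 and over. Of those changed 1.5-fold it called 4 and 22 of 25. Replicates were no duplicates of each other: they differed beyond counting noise (chi-square per gene 2.51 to 5.14).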

Additional observations from a re-analysis of the deposited data

How the results depend on the processing

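The count of LINC genes that rose (18) was 11 with DESeq2, 9 at a threshold of 0.01, 11 without exon overlap and 9 without overlap or shared words. The count that fell (56) was 37 among the 87 LINC genes with a mean of at least 50, 35 without exon overlap and 33 without overlap or shared words. The median of -0.27 became -0.37 with equal totals (which moved the median of all genes to -0.09), -0.13 with quantile normalization, -0.38 without exon overlap, -0.46 without overlap or shared words, and between -0.32 and -0.25 without single samples. The 19 pairs in which the neighbour passed in the same direction were 29 with equal totals, 12 at a threshold of 0.01 and 12 with starts at most 50 kb apart. The subsets hold fewer genes. The cause of the other shifts was not tested, and the calls of all genes by direction are not given for these settings. LINC00649, which did not pass (-0.02), turned to 0.0086 without FOXA1 siRNA replicate 1, 0.00038 without control siRNA replicate 1 and 0.0224 without control siRNA replicate 2, and ranged from -0.0861 to 0.0224 over the 6 fits without 1 sample. No called LINC gene turned direction in the other 15 fits, and 50 of the 74 passed in all 16. The replicate numbers did not pair the samples (correlations of deviations -0.01, 0.01 and -0.01 for equal numbers), and a fit with the number as a block gave 17 higher and 56 lower, with 72 of 74 calls kept, 2 lost and 1 gained. In the simulation most 1.5-fold changes at a mean of 20 to 100 were not called, but only 200 of 18460 genes were changed there. In the data 9571 of 18460 genes passed, so the adjusted threshold was less strict than in the simulation. The simulation therefore does not give the power for these data. The 76 genes that did not pass cannot be called unchanged.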
